A study of Mus musculus with 3 samples.

Results

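The cytosolic ribosome is built from a large and a small subunit, each an assembly of ribosomal RNA and many different proteins. The genes for these proteins, named Rpl for the large and Rps for the small subunit, are housekeeping genes whose mRNAs are usually among the most abundant of a cell. Many of these mRNAs begin with a C followed by a run of pyrimidines, the 5′ terminal oligopyrimidine motif through which mTOR signalling controls their translation.

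The ribosomal protein genes were taken by symbol, as Rpl or Rps with a number and at most one of the letters a, x, y or l, together with Rpsa, Rplp0, Rplp1 and Rplp2. The rule found 80 of 31053 genes in the count table, 49 of the large and 31 of the small subunit. A count was found for 78 of them. Rpl7a and Rpl17 had none. The members with a count numbered 55 in the wildtype library, 72 in the Cnga3-/- library and 71 in the Pde6ccpfl1 library, and 50 had a count in all 3 libraries.

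The libraries came from GFP-positive cones, the photoreceptors of colour and daylight vision, sorted from dissociated mouse retina into 1 plate of 96 wells for each line. The wildtype library carries the name Chrnb4-GFP, a reporter that labels cones. The Cnga3-/- line lacks the main subunit of the cone cyclic nucleotide-gated channel, and the Pde6ccpfl1 line carries a mutant catalytic subunit of the cone phosphodiesterase. Both are models of cone degeneration. The libraries of these lines are named Cnga3-GFP and Pde6c-GFP, and the driver of GFP in them and the number of animals behind each plate are not given in the sources used here. The age label is postnatal day 12 in all 3. A tag inside the well names reads P11 on the wildtype, P08 on the Cnga3-/- and P10 on the Pde6ccpfl1 plate, and no label explains it. Were it an age, age and genotype could not be told apart.

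A well was kept if 500 or more genes had a count and mitochondrially encoded genes took no more than 30% of its counts. This held for 52 of 61 wildtype, 70 of 76 Cnga3-/- and 61 of 71 Pde6ccpfl1 wells. Kept wells held 273080, 335499 and 295011 counts in the same order, with 1061 to 16935 counts in a well. Levels are given as CPM, the counts of a gene or list per 1000000 counts of the library or well. With 1 library per genotype no p-value was computed. A ratio of 2 libraries has an exact 95% interval that covers counting error only, not the variation between wells, animals or plates. Of the targeted genes, Cnga3 had 22, 13 and 3 counts and Pde6c had 0, 5 and 2 counts in the wildtype, Cnga3-/- and Pde6ccpfl1 libraries. Gene counts do not show whether these came from the altered part of either gene, so they do not check the labels.

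Cone markers were near background in the wildtype library. There the 12 cone markers summed to 52 counts, and Opn1sw, Gnat2, Gngt2, Pde6c and Cngb3 were at 0. Per kilobase of exon the cone markers stood at 5.08 CPM (95% interval 3.79 to 6.66), close to the 4.47 CPM of the 1092 olfactory receptor genes, which serve here as a background of genes that retina is not known to use. The same markers stood at 20.0 CPM per kilobase in Cnga3-/- (252 counts) and 19.1 in Pde6ccpfl1 (211 counts). At least 1 cone marker count was found in 21 of 52 wildtype, 60 of 70 Cnga3-/- and 56 of 61 Pde6ccpfl1 wells. Counts of markers of other cells were found in all 3 libraries. The 12 rod markers summed to 115, 285 and 204 counts, the 8 Müller glia markers to 52, 40 and 25, and the 4 pigment epithelium markers to 54, 43 and 26. Per kilobase the rod markers stood at 5.97, 12.0 and 9.80 CPM, against 4.47, 3.60 and 4.14 for olfactory receptors. The Müller glia markers stood at 5.38, 3.37 and 2.39, near or below that background, and the pigment epithelium markers at 16.6, 10.8 and 7.41. The 5 horizontal cell markers stood at 10.9, 7.92 and 9.27, and the 4 endothelium markers at 8.5, 4.4 and 5.1. In wildtype both of these lists stood above the cone and rod markers. Bipolar, amacrine, retinal ganglion and microglia markers lay below the olfactory receptors in each library. The part of other cells in the ribosomal protein results was not tested, apart from the values by cone marker counts given further on.

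Wells at the same plate position resembled each other across plates, and this bears on several ribosomal protein genes. Wildtype and Cnga3-/- shared 50 kept positions, wildtype and Pde6ccpfl1 43, and Cnga3-/- and Pde6ccpfl1 61, with 43 positions kept on all 3 plates. After the mean of each library was subtracted, the profiles of 2532 genes in wells of the same position correlated with a median r of 0.367, 0.339 and 0.345 in these pairs, against -0.005 for wells of different positions. In each pair, the best match of every well on the other plate was the well at its own position. Depth was also alike (Spearman 0.779, 0.701 and 0.822 over positions), and so was the olfactory receptor level (0.793, 0.772 and 0.812). The summed ribosomal protein level correlated less over positions, at 0.143, 0.132 and 0.421, and without the 4 most counted members at -0.008, -0.112 and 0.348. That list has far fewer counts than the olfactory receptors, and sparse counts lower such a correlation, so these values are not directly comparable. The cone markers, also sparse, stood at 0.125, 0.015 and 0.207. These correlations describe points that share a plate layout and carry no test. If counts from one plate were assigned to another, each library would hold counts of the others and every ratio between them would change. Whether this occurred was not tested.

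The clearest case was Rpl5, which binds 5S ribosomal RNA and can restrain Mdm2 in the p53 pathway. It lies at chr5:107900502-107909005 on the plus strand of GRCm38, and its annotated exons share bases with those of Fam69a on the opposite strand. Well A09 held 31 of its 60 wildtype counts, 31 of 49 in Cnga3-/- and 14 of 27 in Pde6ccpfl1, so that 55.9% of all Rpl5 counts came from that 1 position. The highest Rpl5 count in any other well was 3. Position C11 gave 29.0% of the counts of Rplp0, the stalk base protein, with 6, 8 and 13 counts on the 3 plates. Position D11 gave 36.4% of those of Rps26, which sits at the mRNA exit channel, and B07 gave 26.4% of those of Rps14, a platform protein of the small subunit. These 4 genes were the most counted members, and the sums, subunit shares, levels by well and links to cone markers below are also given without them.

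**Figure D1:**
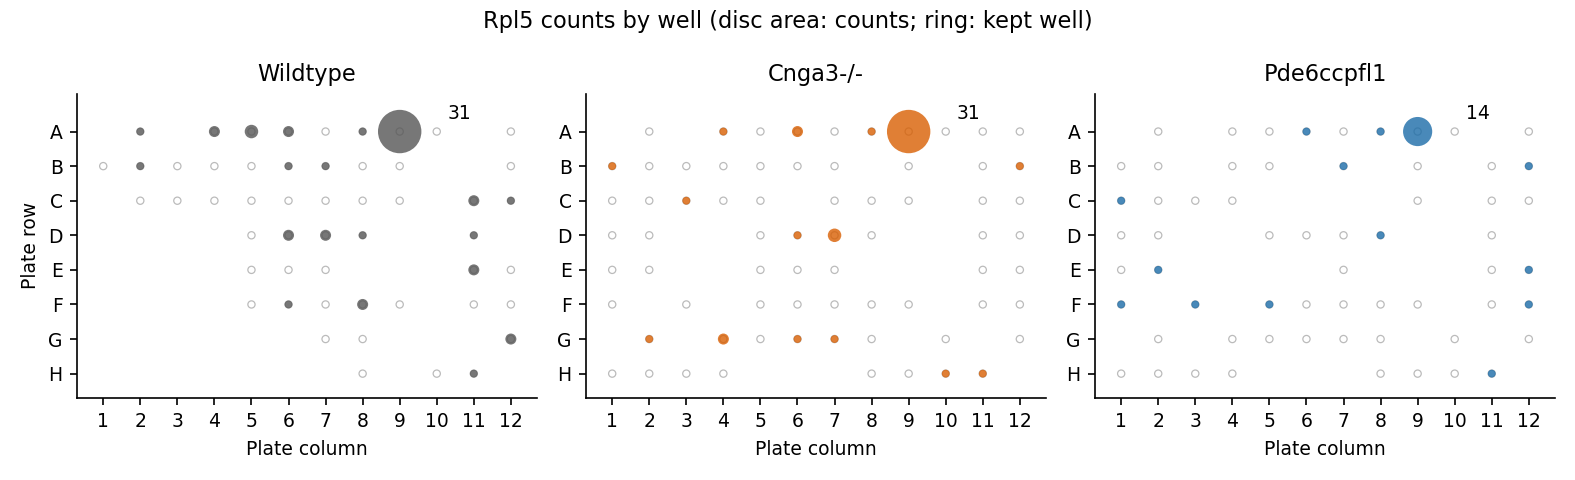
Rpl5 counts in each kept well of the 3 plates, by plate row and column, with disc area in proportion to the count and grey rings for kept wells. Well A09 holds 31, 31 and 14 counts on the wildtype, Cnga3-/- and Pde6ccpfl1 plates, and no other well exceeds 3.

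Promoters of the members shared sequence features that the selection by name did not use. The RefSeq promoter table of the GRCm38.p6 build, with 250 bases before and 50 after each start, held 60 of the 80 members. The start was a C followed by 4 pyrimidines in 12 of 60 (20.0%), against 2.49% of all 27025 promoters. A run of at least 6 C or T bases (on the gene's strand) lay within 80 bases before the start in 48 of 60, against 62.6% of all promoters. The core GGAAG, on either strand and so also read as CTTCC, lay within 100 bases before the start in 51.7%, against 35.9%. The TATA motif TATAAA, on either strand and so also read as TTTATA, lay 16 to 40 bases before the start in 0 of 60, against 2.72%. A match describes letters only. The 80 bases before the start are shown for 3 members that were at least 2-fold higher in a mutant library, with capitals for the runs of at least 6 C or T bases. They lie at chr10:80292351-80292430 for Rps15, chr17:28328391-28328470 for Rpl10a and chr11:68901486-68901565 for Rpl26, all on the plus strand.
Rps15: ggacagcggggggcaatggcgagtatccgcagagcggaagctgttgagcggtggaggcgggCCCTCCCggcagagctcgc
Rpl10a: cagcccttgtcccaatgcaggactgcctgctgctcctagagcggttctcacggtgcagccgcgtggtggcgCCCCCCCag
Rpl26: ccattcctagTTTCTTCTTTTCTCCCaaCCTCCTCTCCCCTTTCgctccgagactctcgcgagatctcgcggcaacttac
The pyrimidine run stands near the start in Rpl10a, within the last 20 bases in Rps15 and farther upstream, in 2 blocks, in Rpl26.

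In all 3 libraries the ribosomal protein mRNAs were a small share of the counts, and that share was higher in both mutant libraries than in wildtype. The wildtype library had 286 counts of the 80 genes, the Cnga3-/- library 625 and the Pde6ccpfl1 library 606. This was 0.105%, 0.186% and 0.205% of all counts, or 1047 CPM (929 to 1176), 1863 CPM (1720 to 2015) and 2054 CPM (1894 to 2224). Per kilobase of exon the members stood at 6.27, 11.2 and 12.3 CPM, against 4.47, 3.60 and 4.14 for olfactory receptors. Without Rpl5, Rplp0, Rps26 and Rps14 the other 76 members stood at 3.44 CPM per kilobase in wildtype (2.91 to 4.04), below the olfactory receptors, and at 9.57 and 9.88 in the mutants.

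The summed level was 1.78-fold higher in Cnga3-/- than in wildtype (1.54 to 2.05) and 1.96-fold higher in Pde6ccpfl1 than in wildtype (1.70 to 2.27). Between the mutants the ratio of Pde6ccpfl1 to Cnga3-/- was 1.10 (0.98 to 1.24). The median of all compared genes lay at -0.13 and -0.11 on the log2 scale in the comparisons with wildtype, and the summed ratios of the members lay above it. At the 43 positions kept on all 3 plates the ratios to wildtype were 1.94 (1.67 to 2.27) and 2.02 (1.74 to 2.36). Without position A09 they were 1.87 (1.61 to 2.18) and 2.05 (1.77 to 2.39). Leaving out the 4 most counted members raised them to 2.78 (2.31 to 3.37) and 2.87 (2.38 to 3.48). Those 4 genes alone stood at 0.70 (0.54 to 0.90) of wildtype in Cnga3-/- and 0.99 (0.78 to 1.25) in Pde6ccpfl1. They held 48.2% of the ribosomal protein counts in wildtype, against 19.0% and 24.3% in the mutants. The comparisons with wildtype share 1 wildtype library, so they are not independent of each other.

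Both subunits were higher in the mutant libraries, by ratios whose intervals overlap. The large subunit had 185, 388 and 384 counts in wildtype, Cnga3-/- and Pde6ccpfl1, which gave ratios to wildtype of 1.71 (1.43 to 2.05) and 1.92 (1.61 to 2.30). The small subunit had 101, 237 and 222 counts, with ratios of 1.91 (1.51 to 2.44) and 2.04 (1.60 to 2.60). Leaving out Rpl5 and Rplp0, the large subunit had 97, 315 and 316 counts and ratios of 2.64 (2.10 to 3.35) and 3.02 (2.40 to 3.83). Leaving out Rps26 and Rps14, the small subunit had 51, 191 and 143 counts and ratios of 3.05 (2.23 to 4.24) and 2.60 (1.87 to 3.65). Large subunit genes made up 64.7% of ribosomal protein counts in wildtype (exact Clopper-Pearson 95% interval 58.8 to 70.2%), 62.1% in Cnga3-/- (58.2 to 65.9%) and 63.4% in Pde6ccpfl1 (59.4 to 67.2%). Without the 4 most counted members the large subunit share was 65.5% (57.3 to 73.2%), 62.3% (57.9 to 66.5%) and 68.9% (64.4 to 73.1%). The intervals of these shares overlap, and a difference in subunit balance was not tested. Between the mutants the ratio was 1.13 (0.97 to 1.30) for the large and 1.07 (0.88 to 1.29) for the small subunit, and 1.14 (0.97 to 1.34) and 0.85 (0.68 to 1.06) without the 4.

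Most members had a higher CPM in the mutants, and more of them did than of all genes. Of all 80, 62 had a higher CPM in Cnga3-/- than in wildtype, 13 a lower one and 5 had no count in either. The 62 are 82.7% of members with a count in the pair, against 48.9% of all 21011 such genes. Pde6ccpfl1 was higher than wildtype for 65, lower for 9, and 6 had no count in either. The 65 are 87.8% of members with a count in the pair, against 45.4% of all 20557 such genes. The CPM was above wildtype in both mutants for 52 members and below it in both for 3, which is 66.7% and 3.85% of those with a count in any library, against 25.9% and 37.9% of all 22294 genes with one. A count in both mutants with none in wildtype was found for 16 members, and a count in wildtype alone for 1, which is 20.5% and 1.28%, against 9.23% and 5.52% of genes. The wildtype library had the fewest counts of the 3, and the part of depth in these counts of genes was not tested. Between the mutants the members were divided, with 43 higher in Pde6ccpfl1, 34 lower and 3 without a count in either. The 43 are 55.8% of members with a count in the pair, against 50.3% of all 21064 such genes.

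Members with at least 10 counts over a pair of libraries were also set against a 2-fold difference. A member with few wildtype counts passes this minimum only if it is high in the mutant, so these numbers are descriptions. A library at 0 was set to 3 counts. In Cnga3-/- against wildtype 15 of 29 members were at least 2-fold higher, where 16.1% of all 7739 genes compared were, and 0 were at least 2-fold lower, against 15.1% of genes. In Pde6ccpfl1 against wildtype 18 of 30 were at least 2-fold higher, against 15.5% of 7289 genes, and 1 was at least 2-fold lower, against 17.0%. The median log2 ratio of these members was 1.02 and 1.17. In Pde6ccpfl1 against Cnga3-/- 6 of 45 members were at least 2-fold higher, against 10.1% of 7850 genes, and 4 were at least 2-fold lower, against 14.2%. Both of these shares are near the background, and the median log2 ratio was 0.19.

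**Figure D2:**
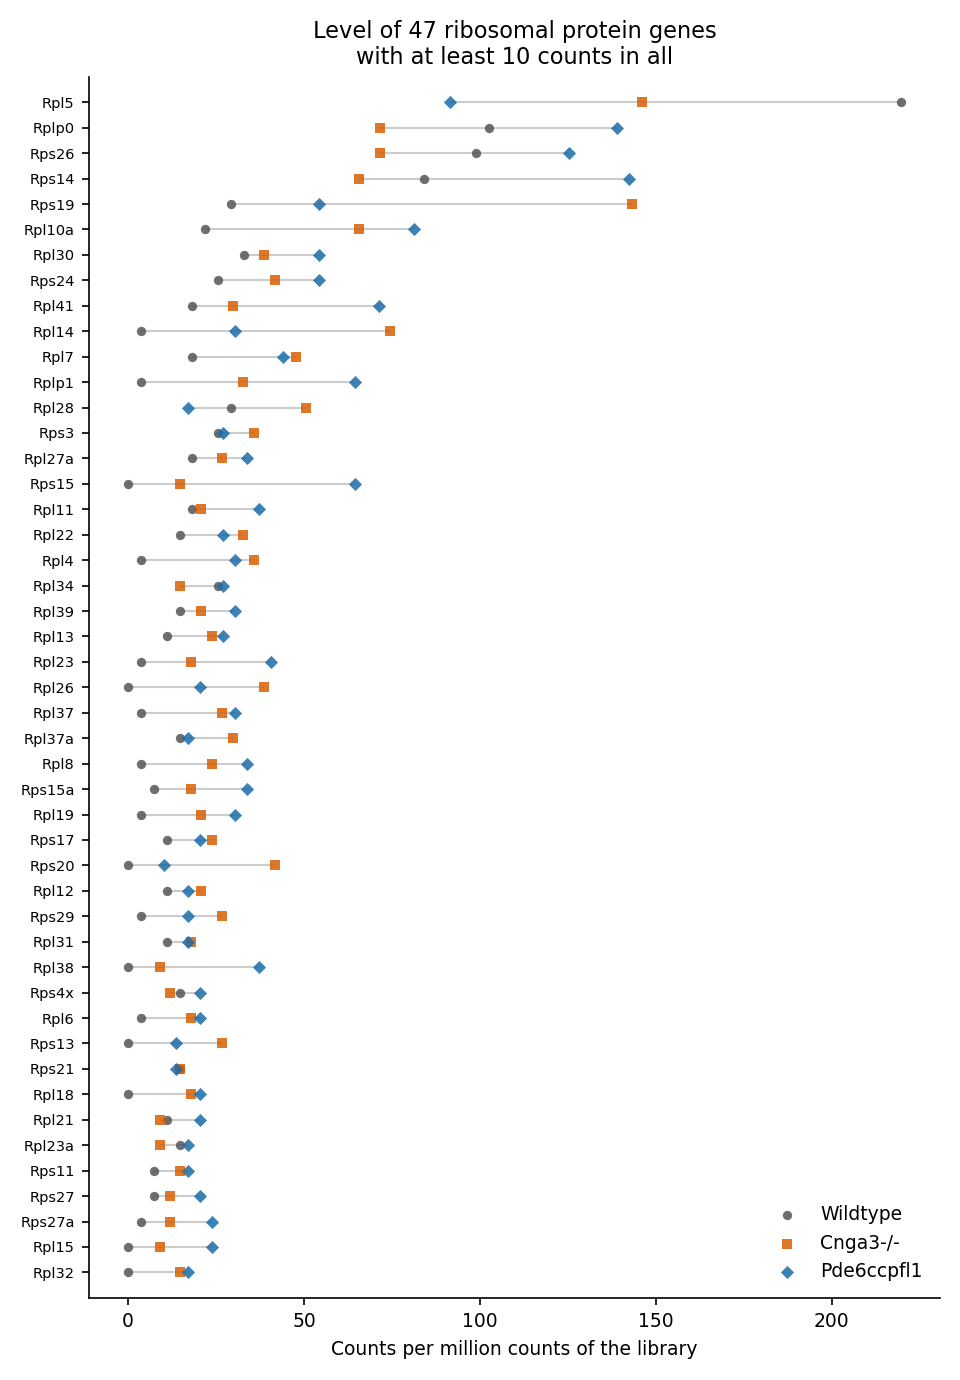
CPM of 47 of the 48 ribosomal protein genes with at least 10 counts over all 3 libraries (1 is not shown), ordered by their total count, with a grey dot for wildtype, an orange square for Cnga3-/- and a blue diamond for Pde6ccpfl1. Wildtype is the lowest point for most genes, whereas Rpl5 is highest in wildtype and Rps19 and Rpl14 are highest in Cnga3-/-.

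The most counted members did not follow the sum in Cnga3-/-, and Rpl5 did not in Pde6ccpfl1. Rpl5 had 60, 49 and 27 counts, or 220, 146 and 91.5 CPM, in wildtype, Cnga3-/- and Pde6ccpfl1. On the log2 scale it stood at -1.26 (-1.98 to -0.59) in Pde6ccpfl1 and -0.59 (-1.16 to -0.02) in Cnga3-/- relative to wildtype, and no other compared member was 2-fold or more below wildtype in a mutant. Outside position A09 it had 29, 18 and 13 counts, and the ratios to wildtype were 0.41 (0.20 to 0.81) in Pde6ccpfl1 and 0.50 (0.26 to 0.94) in Cnga3-/-. The wildtype library was thus the highest in Rpl5 both with and without that well. Rplp0 had 28, 24 and 41 counts, Rps26 27, 24 and 37, and Rps14 23, 22 and 42. For these 3 genes the intervals of both ratios to wildtype included 1. In Pde6ccpfl1 the log2 ratios were 0.44 (-0.29 to 1.19), 0.34 (-0.41 to 1.12) and 0.76 (-0.01 to 1.56). These intervals also included the 0.97 of the sum. Pde6ccpfl1 stood above Cnga3-/- in each, by log2 ratios of 0.96 (0.20 to 1.75) for Rplp0, 0.81 (0.03 to 1.62) for Rps26 and 1.12 (0.34 to 1.93) for Rps14.

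Among the small subunit genes, Rps19 differed most clearly from the leading 4. Rps19, needed to mature 18S ribosomal RNA and mutated in Diamond-Blackfan anaemia, had 8, 48 and 16 counts in wildtype, Cnga3-/- and Pde6ccpfl1. Its counts were spread over 8 of 52, 30 of 70 and 13 of 61 wells, with no more than 5 in a well and 8.33% of all counts at its leading position. The log2 ratio was 2.29 (1.20 to 3.58) in Cnga3-/- against wildtype and 0.89 (-0.42 to 2.32) in Pde6ccpfl1 against wildtype. Pde6ccpfl1 lay below Cnga3-/- by -1.40 (-2.32 to -0.56). Rps15, a protein of the small subunit head that takes part in its export from the nucleus, had the opposite order of the mutants, with 0, 5 and 19 counts. With the wildtype 0 set to 3 counts, Rps15 was 5.86-fold higher in Pde6ccpfl1 than in wildtype. The exact interval, which kept the 0, began at 2.11 on the log2 scale. Its log2 ratio between the mutants was 2.11 (0.64 to 3.89). Rps20, a head protein, had 0, 14 and 3 counts. With the 0 set to 3 counts, Rps20 was 3.80-fold higher in Cnga3-/- than in wildtype, and the exact log2 interval began at 1.43. Pde6ccpfl1 stood at -2.04 (-4.48 to -0.20) relative to Cnga3-/- on the log2 scale. Rps24 had 7, 14 and 16 counts, and Rps29, a small zinc-binding protein, had 1, 9 and 5. Among these 5 the 2 mutant libraries thus led in different genes. Rps15, Rps20 and Rps29 were named for their high ratios to wildtype, so their direction against wildtype was set by the choice. The more counted Rps26 and Rps14, given above, are not among the 5.

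In the large subunit the acidic stalk protein Rplp1, part of the arm that recruits elongation factors, had 1, 11 and 19 counts. It was 8.95-fold higher in Cnga3-/- than in wildtype and 17.6-fold higher in Pde6ccpfl1, with log2 intervals of 0.38 to 8.59 and 1.48 to 9.51 that reflect the single wildtype count. Rpl14 had 1, 25 and 9 counts, in 1, 19 and 9 wells. Relative to wildtype it stood at 4.35 (1.74 to 9.71) on the log2 scale for Cnga3-/- and at 3.06 (0.21 to 8.51) for Pde6ccpfl1. Rpl10a, the protein of the L1 stalk, had 6, 22 and 24 counts in 5, 16 and 15 wells, with log2 ratios of 1.58 (0.23 to 3.17) and 1.89 (0.56 to 3.47). None of the 3 owed its mutant level to 1 well, since no well held more than 3 counts of any of them.

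Several large subunit genes had a single count in wildtype. Besides Rplp1 and Rpl14, some of them reached 10 counts with a mutant library, which only a high mutant count allows. These were Rpl4 (1, 12 and 9 counts), Rpl23 (1, 6 and 12), Rpl37 (1, 9 and 9), Rpl8 (1, 8 and 10) and Rpl19 (1, 7 and 9). Others with a single wildtype count fell short of that minimum, and some of those were not above wildtype in at least 1 mutant. Rpl4 lines the exit tunnel for the nascent chain. Rpl7 had 5, 16 and 13 counts. Rpl26, which also binds p53 mRNA, had 0, 13 and 6 counts. With the 0 set to 3 counts, it was 3.53-fold higher in Cnga3-/- than in wildtype, and the exact log2 interval began at 1.31. Rpl41, one of the shortest proteins known, had 5, 10 and 21 counts. In Pde6ccpfl1 it stood 1.96 (0.51 to 3.72) above wildtype and 1.26 (0.11 to 2.51) above Cnga3-/- on the log2 scale. Rpl38, which favours translation of Hox mRNAs in the embryo, had 0, 3 and 11 counts. With the 0 set to 3 counts, it was 3.39-fold higher in Pde6ccpfl1 than in wildtype, and the exact log2 interval began at 1.22. In Pde6ccpfl1 it stood 2.06 (0.14 to 4.54) above Cnga3-/- on the log2 scale. Rpl28 had 8, 17 and 5 counts, and its log2 ratio of Pde6ccpfl1 to Cnga3-/- was -1.58 (-3.37 to -0.08). Rpl30, which binds its own transcript in yeast, had 9, 13 and 16 counts and log2 ratios to wildtype of 0.23 and 0.72, whose intervals included 0, as did that of 1.41 (-0.72 to 3.99) for Rpl15 between the mutants, on 3 and 7 counts.

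The paralogs had few counts, as did some of the usual members. Rpl3l, the striated muscle form of Rpl3, had 0, 1 and 0 counts, and Rpl10l, the testis form of Rpl10, had 1, 0 and 0. Rpl39l had 0, 2 and 0 counts, and Rps27l, a p53 target, had 0, 4 and 2. Rpl10 itself had 0, 3 and 0 counts and Rps6, the target of S6 kinase, 1, 0 and 1, so low counts do not set the paralogs apart. Ribosomal protein pseudogenes, processed copies to which reads of the parent gene can be assigned, had few counts as well. The 9 with a name in the list summed to 3, 8 and 13 counts, of which Rpl10-ps3 held 1, 6 and 10. How the authors' counting treated reads that match several copies is not given in the sources used here, so the level of a single gene with close copies is uncertain. The exons of 37 members overlap those of another gene. For the 43 that overlap none, the ratios to wildtype were 1.81 (1.5 to 2.20) in Cnga3-/- and 2.25 (1.86 to 2.72) in Pde6ccpfl1, and the ratio between the mutants was 1.24 (1.07 to 1.44).

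Well by well, ribosomal protein counts were sparse. A kept well held 0 to 32 ribosomal protein counts in wildtype (median 4), 0 to 40 in Cnga3-/- (median 6) and 0 to 38 in Pde6ccpfl1 (median 8). The median number of members with a count was 3, 5 and 6, and the highest was 14, 26 and 25. No ribosomal protein count was found in 6 wildtype, 3 Cnga3-/- and 1 Pde6ccpfl1 wells. Per well, the level ran from 0 to 3988 CPM in wildtype with a median of 783, from 0 to 8908 in Cnga3-/- with a median of 1501, and from 0 to 6557 in Pde6ccpfl1 with a median of 2061. The ranges overlap widely, and the medians have the order of the sums. For the 76 members without the leading 4 the medians were 441, 1277 and 1523 CPM, and 10, 5 and 1 wells had none of their counts.

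**Figure D3:**
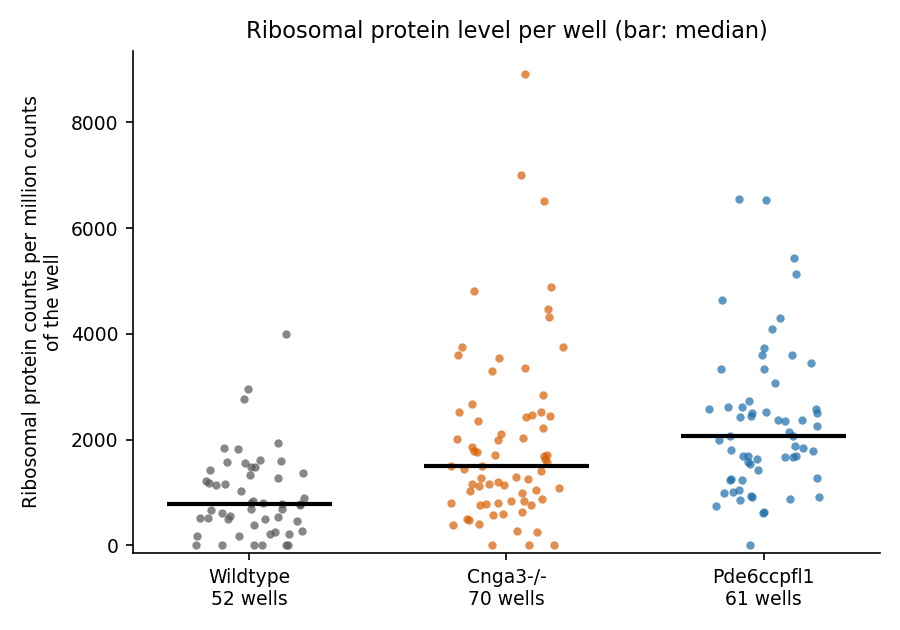
Ribosomal protein level of each kept well in CPM of that well, for 52 wildtype, 70 Cnga3-/- and 61 Pde6ccpfl1 wells, with the median as a bar (783, 1501 and 2061 CPM). No wildtype well exceeds 3988 CPM, whereas the highest wells of the mutant plates reach 8908 and 6557 CPM, and all 3 plates have wells at 0.

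Depth differed between wells, so each well was thinned to 1400 counts, which left 48, 65 and 54 wells. A ribosomal protein count then remained in 64.6% of wildtype wells (49.5 to 77.8%), 90.8% of Cnga3-/- wells (81.0 to 96.5%) and 92.6% of Pde6ccpfl1 wells (82.1 to 97.9%). Before thinning the shares were 88.5%, 95.7% and 98.4%. A large subunit count was found in 25 of 48, 52 of 65 and 44 of 54 thinned wells and a small subunit count in 14, 31 and 37 of them. Without the 2 most counted members such a count remained in 24 of 48 wildtype wells (35.2 to 64.8%), 89.2% of Cnga3-/- and 92.6% of Pde6ccpfl1 wells, and without the 4 most counted the shares were 41.7% (27.6 to 56.8%), 86.2% (75.3 to 93.5%) and 87.0% (75.1 to 94.6%). A count of the nuclear oxidative phosphorylation genes remained in 81.3%, 89.2% and 98.1% of thinned wells, a rod marker count in 37.5%, 55.4% and 48.1%, and a cone marker count in 18.8%, 61.5% and 57.4%. Wildtype was thus the lowest in each of these lists too, but not in every sparse list. Horizontal cell markers were found in 35.4% of thinned wildtype wells, above the 26.2% of Cnga3-/- and 33.3% of Pde6ccpfl1. The retinal ganglion, microglia and pigment epithelium lists also had their highest share in wildtype. Wildtype was lowest for the bipolar and amacrine lists and between the mutants for Müller glia and endothelium. In these lists of other cells the wildtype interval overlapped those of both mutants. Lists with many more counts per thinned well cannot show a gap between libraries, since olfactory receptors, with a mean of 20.5, 18.3 and 20.8 counts, were found in every one. Ribosomal proteins had a mean of 1.31, 2.82 and 2.93 counts.

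The link with cone marker counts was weak within each library. The Spearman correlation of the ribosomal protein level with the cone marker level over wells, both in CPM, was 0.17 in wildtype (52 wells), 0.34 in Cnga3-/- (70 wells) and 0.28 in Pde6ccpfl1 (61 wells). On raw counts it was 0.38, 0.41 and 0.35, but raw counts of both lists also followed the depth of the well (0.77, 0.61 and 0.75 for ribosomal proteins). In thinned wells it was 0.16, 0.19 and 0.30. At the 43 positions kept on all 3 plates it was 0.05, 0.48 and 0.16, and without the 4 most counted members it was 0.05, 0.40 and 0.35 over all wells. By subunit the correlation with cone markers was 0.06, 0.39 and 0.18 for the large and 0.30, 0.09 and 0.13 for the small subunit. The correlation of ribosomal proteins with rod markers was 0.17, -0.04 and 0.13, and that with nuclear genes of oxidative phosphorylation was 0.21, 0.40 and 0.38. The large and small subunit correlated at only 0.08, 0.34 and 0.19 with each other. Values of this size in counts this sparse are a description and no finding.

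Wells were also summed by their cone marker counts. In Cnga3-/- the 10 wells without a cone marker count stood at 1092 CPM of ribosomal proteins (742 to 1550), the 28 wells with 1 or 2 at 1919 (1693 to 2167) and the 32 wells with 3 or more at 1946 (1743 to 2166). Wells with 3 or more were 1.78-fold above those with 0 (1.23 to 2.66), by 2.55-fold (1.49 to 4.75) in the large and 1.15-fold (0.69 to 2.04) in the small subunit. Without the 4 most counted members the ratio was 1.64 (1.12 to 2.50). In Pde6ccpfl1 the same groups of 5, 20 and 36 wells stood at 2057, 1790 and 2143 CPM, and the ratio of 3 or more to 0 was 1.04 (0.72 to 1.57), or 0.99 (0.65 to 1.59) without the 4. In wildtype the 31, 16 and 5 wells stood at 842, 1364 and 930 CPM. The 16 wildtype wells with 1 or 2 cone counts include A09, and without Rpl5 they stood at 949 CPM. The median depth also differed, with 2716 counts in the Cnga3-/- wells without a cone count and 4420 in those with 3 or more. In wells thinned to 1400 counts, where few wells held 3 cone counts, those with at least 1 were set against those with 0. The ratio was then 1.08 (0.79 to 1.48) in Cnga3-/-, from 40 and 25 wells, and 1.60 (1.14 to 2.29) in Pde6ccpfl1, from 31 and 23 wells. Without the 4 most counted members these ratios were 1.17 (0.84 to 1.66) and 1.94 (1.31 to 2.93). In wildtype the ratio was 1.13 (0.56 to 2.11) from 9 and 39 wells. The mutant library with a gap between wells with and without cone counts therefore differed with the depth and the grouping.

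Wells with like cone marker counts were also compared across libraries. Among wells with 3 or more, wildtype stood at 930 CPM (644 to 1299), below both mutants. Among wells with 1 or 2, wildtype at 1364 CPM (1146 to 1612) lay below Cnga3-/-, while its interval overlapped that of Pde6ccpfl1 (1493 to 2130). Among wells without a cone count, wildtype at 842 CPM (695 to 1012) overlapped Cnga3-/- and lay below Pde6ccpfl1 (1378 to 2954). Without the 4 most counted members, wildtype lay below both mutants in each group, at 495 CPM (384 to 629), 593 (453 to 763) and 574 (356 to 878), against at least 1022 CPM (684 to 1467) in a mutant group. In thinned wells wildtype stood at 916 CPM without a cone count and 1032 with one, against 1914 and 2071 in Cnga3-/- and 1553 and 2488 in Pde6ccpfl1. Only 5 wildtype wells had 3 or more cone counts and only 5 Pde6ccpfl1 wells had none. All these intervals cover counting error of summed wells, not the spread between wells. With 3 or more cone counts, single wells ran from 560 to 1559 CPM in wildtype. They ran from 0 to 4882 in Cnga3-/- and from 743 to 6557 in Pde6ccpfl1, so the ranges of wells overlap.

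**Figure D4:**
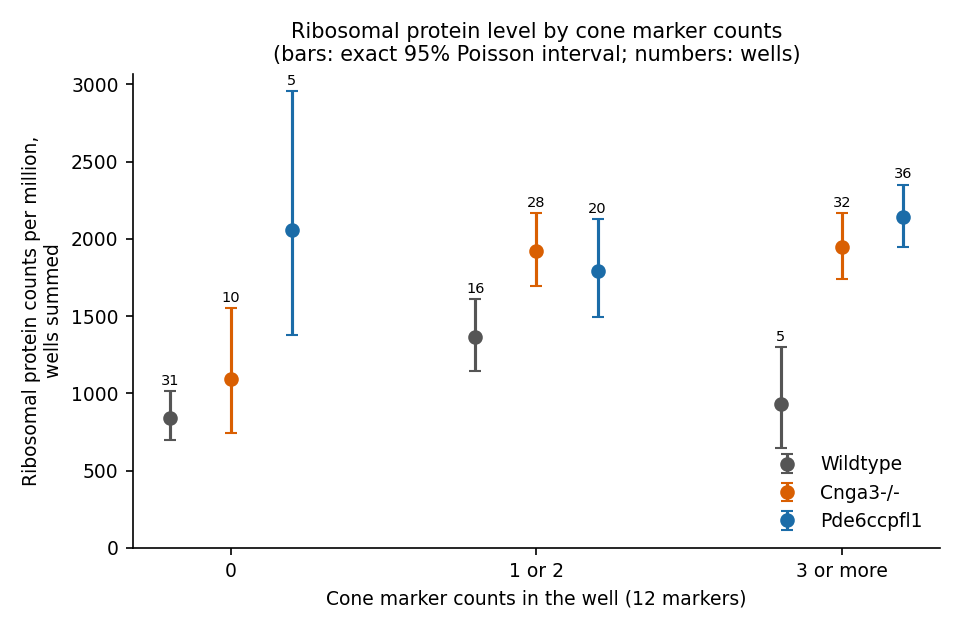
Ribosomal protein level in CPM, with wells summed by the number of cone marker counts they held, for the 3 libraries, with exact 95% Poisson intervals and the number of wells above each point. Wildtype has the lowest value in each group of wells (842, 1364 and 930 CPM), and Cnga3-/- wells without a cone count stand below its other wells.

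Elongation, initiation and mTOR lists had summed ratios from 0.97 to 1.41, whose intervals all included 1. Those of elongation and mTOR genes also overlapped the intervals of the ribosomal protein sum, and the difference between lists was not tested. The 7 elongation factor genes summed to 36, 46 and 49 counts, and the ratio to wildtype was 1.04 (0.66 to 1.66) for Cnga3-/- and 1.26 (0.80 to 1.99) for Pde6ccpfl1. Among them Eef2, the translocase, had 21, 17 and 28 counts, Eef1d had 9, 18 and 5, and Eef1a1, which delivers aminoacyl-tRNA, had 2, 8 and 7. The 32 initiation genes gave 0.97 (0.82 to 1.15) and 1.09 (0.92 to 1.30). In Cnga3-/- 1 of 12 compared was at least 2-fold higher and 3 lower, against 16.1% and 15.1% of all genes compared. In Pde6ccpfl1 1 of 13 was higher and 1 lower, against 15.5% and 17.0%. In this list Eif3b had 74, 70 and 71 counts, the poly(A)-binding protein Pabpc1 had 27, 62 and 49, and Larp1, which binds terminal oligopyrimidine mRNAs, had 24, 32 and 25. Pabpc1 is itself encoded by such an mRNA. The 9 genes of S6 kinase and mTOR signalling gave 1.30 (0.88 to 1.93) and 1.41 (0.95 to 2.11), with Rptor at 15, 18 and 27 counts, Rps6kb1 at 7, 9 and 10 and Rps6kb2 at 6, 13 and 7.

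Genes that make ribosomes had a lower sum in the mutant libraries, and 1 gene carried most of the difference. The 24 assembly genes, which transcribe or process ribosomal RNA or build the subunits, summed to 358, 346 and 313 counts, with ratios of 0.79 (0.68 to 0.91) and 0.81 (0.69 to 0.94). Without Polr1b the sums were 247, 277 and 256 counts and the ratios 0.91 (0.77 to 1.09) and 0.96 (0.80 to 1.15). In Cnga3-/- 11 genes were higher and 12 lower than in wildtype, and in Pde6ccpfl1 11 and 11. Of 9 compared, 1 was at least 2-fold higher and 1 lower in Cnga3-/-, against 16.1% and 15.1% of all genes compared. In Pde6ccpfl1 0 were higher and 3 lower, against 15.5% and 17.0%. Polr1b, a subunit of RNA polymerase I, had 111, 69 and 57 counts, and Nob1, the nuclease that ends 18S maturation, had 90, 63 and 79, whereas nucleolin, encoded by Ncl, had 73, 118 and 91. The 7 ribosomal proteins and relatives outside the naming rule summed to 10, 18 and 29 counts, with ratios of 1.47 (0.64 to 3.55) and 2.68 (1.27 to 6.17). Fau, the precursor of a small subunit protein, held 5, 8 and 14 of these, Rack1, a scaffold on the small subunit, 3, 3 and 9, and Rpl7l1 2, 4 and 2.

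The mitochondrial ribosome had a lower sum in the mutant libraries, which rested largely on Mrpl12. Its 78 genes summed to 1456, 1303 and 1135 counts, more than the cytosolic ribosomal proteins in each library, and stood at 21.8, 15.9 and 15.7 CPM per kilobase. The ratios to wildtype were 0.73 (0.68 to 0.79) and 0.72 (0.67 to 0.78). Without Mrpl12 the sums were 684, 853 and 623 counts and the ratios 1.02 (0.92 to 1.12) and 0.84 (0.76 to 0.94). In Cnga3-/- 39 genes were higher and 35 lower than in wildtype, with a median log2 ratio of -0.01 over 24 compared. Of these 24, 3 were at least 2-fold higher and 1 lower, against 16.1% and 15.1% of all genes compared. In Pde6ccpfl1 31 were higher and 38 lower, with a median of -0.25 over 25. Of these 25, 5 were at least 2-fold higher and 2 lower, against 15.5% and 17.0%. Mrpl12 alone held 772, 450 and 512 of these counts, Mrps11 261, 200 and 190, and Mrpl19 102, 238 and 83. The level of this list also followed plate position (Spearman 0.656, 0.360 and 0.333). The 80 nuclear genes of oxidative phosphorylation resembled the cytosolic ribosomal proteins instead, with 311, 632 and 595 counts and ratios of 1.65 (1.44 to 1.90) and 1.77 (1.54 to 2.04). Of their compared genes, 14 of 24 and 19 of 28 were at least 2-fold higher, against 16.1% and 15.5% of all genes compared. Here too a gene with few wildtype counts is compared only if it is high in the mutant. The intervals of both summed ratios overlap those of the ribosomal protein sum. The cone markers had larger ratios, 3.95 (2.92 to 5.43) and 3.76 (2.76 to 5.19), and the rod markers had 2.02 (1.62 to 2.53) and 1.64 (1.30 to 2.08). Olfactory receptors stood at 0.80 (0.77 to 0.84) and 0.93 (0.89 to 0.97).

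**Figure D5:**
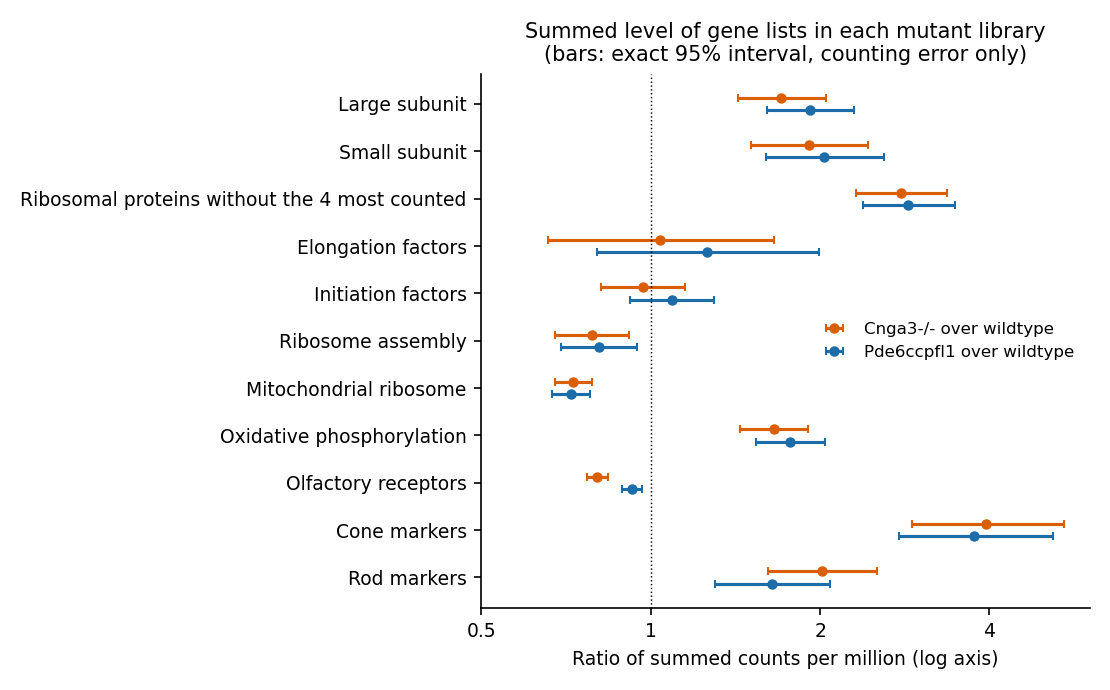
Ratio of the summed CPM of each gene list in Cnga3-/- (orange) and Pde6ccpfl1 (blue) to wildtype, on a log axis with exact 95% intervals for counting error. Both ribosomal subunits, oxidative phosphorylation genes and photoreceptor markers lie above 1, whereas ribosome assembly, mitochondrial ribosome and olfactory receptor genes lie below it, with Polr1b and Mrpl12 included in their lists.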

How the data were processed

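The authors deposited 1 table of raw counts per gene and well, made, per the labels, by combining elements of the SMARTseq2 and MARS-seq methods. Per the submitters' processing notes, featureCounts was used, with the build GRCh38. That is a human build and the symbols are mouse, so it was not used here. The aligner, strandedness, handling of molecular identifiers and treatment of doublets are not given in the sources used here. Counts may therefore not be independent molecules. No doublet caller was run, since wells were sorted as single cells.

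Wells were matched to libraries by the names of their columns and filtered as described above. Counts of kept wells were summed per library and scaled to CPM, with exact Poisson intervals for levels and exact conditional 95% intervals for ratios. Libraries at 0 counts were set to a floor of 3 counts, over the library. Positions were compared on log2(CPM + 100) of genes with at least 50 counts. Exon lengths and overlaps came from GENCODE M21. The members named were the 12 with the most counts, up to 8 at each end of a comparison among those with at least 10 counts and a 2-fold difference, 4 paralogs, and up to 3 genes from each other list. The values of 1 member that the rule names are not reported here. Members and lists were chosen with earlier results of these data known. Scripts ran in Python 3.11.15 with scipy 1.17.1 and were tested on simulated counts, and edgeR 4.0.16 gave the TMM factors of 1 alternative. The alternatives changed the filter on wells or genes, the depth, the scaling and the members included. Leaving out A09, Rpl5, the 4 leading members, Mrpl12 or Polr1b, thinning the wells grouped by cone counts, and keeping to shared positions or to members without exon overlap, were chosen after the data were seen.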

Additional observations from a re-analysis of the deposited data

How the results depend on the processing

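With 1 library per genotype no replicate could be left out, and no paired analysis was possible because there is 1 library per genotype. No summed ratio changed direction. The ratio of Cnga3-/- to wildtype ran from 1.69 to 2.78 over 14 alternatives, that of Pde6ccpfl1 to wildtype from 1.82 to 2.87, and that between the mutants from 1.03 to 1.24. Of 42 such values, 32 stayed within the interval of the reported ratio. The ratio of Cnga3-/- to wildtype moved to 2.15 in thinned wells, 2.06 as a mean over wells, 2.27 without the 2 most counted members, 2.07 without Rpl5 and 2.78 without the 4 leading members. Pde6ccpfl1 to wildtype moved to 2.43 as a mean over wells, 2.52 without the 2 most counted members, 2.37 without Rpl5 and 2.87 without the 4 leading members. Between the mutants it moved to 1.24 for members without exon overlap. The cause of each move was not tested beyond the members left out.

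Numbers of members at least 2-fold apart depend on the minimum count, since fewer or more members are compared. For Cnga3-/- above wildtype, 15 became 34 of 75 members with at least 1 count and 27 of 52 with 5. With 20 it was 4 of 11 and with 50 it was 1 of 4. The shares of all genes were 19.5%, 18.8%, 14.3% and 11.1%. With at least 1 count, 2 of 75 were lower, against 23.2% of genes. For Pde6ccpfl1 above wildtype, 18 became 30 of 74 with at least 1 count, 4 of 10 with 20 and 0 of 4 with 50. All genes gave 19.4%, 12.1% and 10.2%. Without the 5 deepest wells of each library it was 11 of 20, against 16.4% of genes. With at least 1 count, 4 of 74 were lower, against 23.9%. For Pde6ccpfl1 above Cnga3-/-, 6 became 11 of 77 with at least 1 count and 10 of 65 with 5. With 20 it was 3 of 17 and with 50 it was 1 of 5. All genes gave 20.6%, 13.1%, 7.81% and 6.25%. The 4 lower members became 12 of 77 with 1, 9 of 65 with 5 and 1 of 5 with 50. For all genes these shares were 18.5%, 16.5% and 9.4%. At 50 counts 4 or 5 members remained.

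Without thinning, the share of wells with a ribosomal protein count was 88.5% in wildtype and 98.4% in Pde6ccpfl1, and without the 4 leading members it was 41.7% in thinned wildtype wells. The correlation with cone markers moved by over 0.1 in 7 of 30 values. These were 0.38 on raw counts, 0.049 at shared positions and 0.053 without the 4 leading members in wildtype, 0.19 in thinned wells and 0.48 at shared positions in Cnga3-/-, and 0.16 both in wells with at least 1000 genes and at most 15% mitochondrial counts and at shared positions in Pde6ccpfl1. Depth limits single members most, since 30 of the 80 had 1 to 9 counts in all and 2 had none.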
